A study of Mus musculus with 6 samples.

Results

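The hypoxia genes described here are 10 members of the pathway by which cells sense and answer low oxygen: Hif1a, Egln1, Egln2, Egln3, Vhl, Ddit4, Ndrg1, Higd1a, Ankrd37 and P4ha1. They were picked by gene symbol for their function, and all 10 had a row among the 24254 gene rows of the deposited table. The libraries are bulk RNA-seq of mouse oocytes at metaphase II, the arrested stage at which an egg can be fertilized. Oocytes matured in culture (in vitro maturation, IVM) gave 3 libraries, and oocytes matured in the animal (IVO) gave the other 3. Nothing is stated in the sources used here about strain, age, hormone treatment, culture medium, oxygen in culture or oocytes per library, nor about whether replicates came from separate animals. The p-values therefore rest on differences among these libraries alone, a spread that may be technical. Group values below are means ± SD over the 3 libraries of a group, and differences are IVM minus IVO.

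Cells hold the transcription factor subunit HIF-1 alpha, the product of Hif1a, at a low level while oxygen is plentiful. Prolyl hydroxylases encoded by Egln1, Egln2 and Egln3 use oxygen to mark the protein, and the von Hippel-Lindau protein, encoded by Vhl, then recruits a ubiquitin ligase that sends it to the proteasome. When oxygen falls the mark is not made, HIF-1 alpha accumulates, pairs with its partner ARNT and activates target genes. Ddit4, Ndrg1, Higd1a, Ankrd37, P4ha1 and Egln3 are known targets in many cell types. Control of HIF-1 alpha acts largely on the protein, which RNA-seq does not measure. Most transcription is silent in the fully grown oocyte, so egg transcripts are largely a store laid down during growth.

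Expression was read as FPKM, fragments scaled by transcript length and by sequencing depth, a level per length that allows genes to be set beside each other. The members ranged from one of the most abundant messages to genes barely detected. Averaged over the 6 libraries, Ddit4 lay above 99.7% of all gene rows, Egln1 above 97.2% and Hif1a above 96.8%. Higd1a and Egln2 lay above 82.4% and 81.0%. The other 5 members, Vhl, Ndrg1, Egln3, P4ha1 and Ankrd37, had a mean FPKM under 1.

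**Figure D1:**
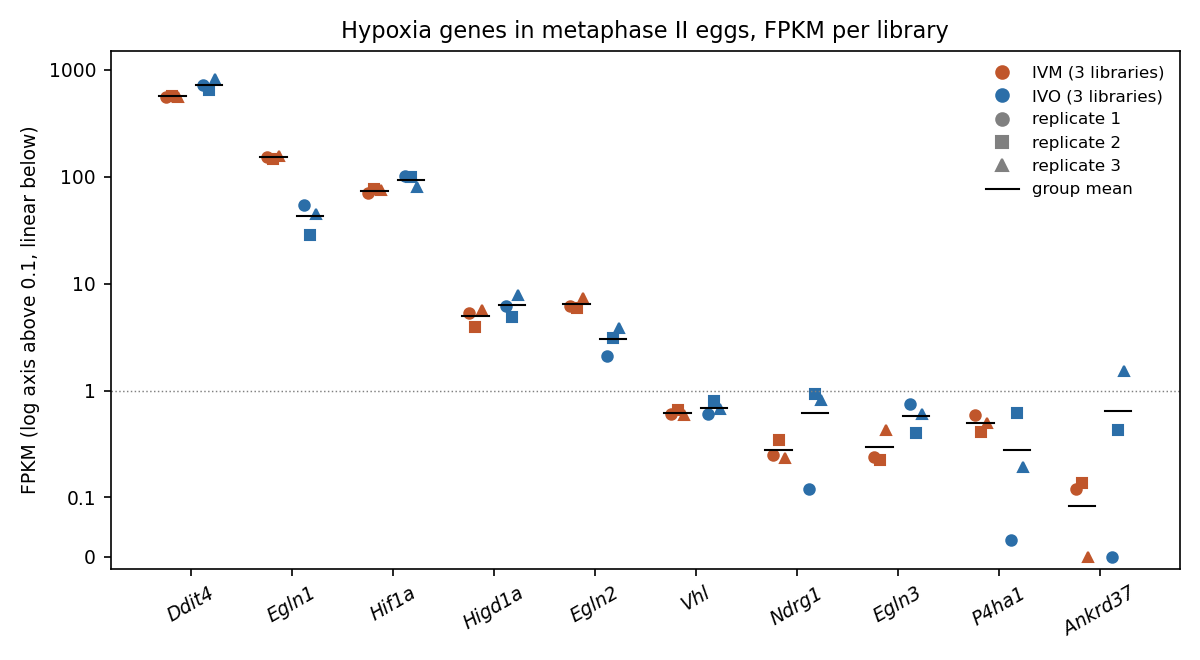
FPKM of each hypoxia gene (y axis, log scale above 0.1 and linear below) in the 3 IVM and 3 IVO libraries, with a bar at each group mean and a dotted line at an FPKM of 1. Egln1 and Egln2 sit higher in every IVM library than in any IVO library, Ddit4 and Hif1a sit lower, and 5 genes lie under the dotted line on average.

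The 7746 genes whose mean FPKM reached 1, 5 members among them, were tested together with limma on log2(FPKM + 1), and p-values were adjusted over all of them by the Benjamini-Hochberg method. Of the 5 members, Egln1 and Egln2 rose in IVM and Ddit4 and Hif1a fell, at an adjusted p under 0.05, while Higd1a did not pass. Calls were frequent in this comparison: 41.0% of all tested genes passed, 20.6% higher and 20.4% lower in IVM. The 2 groups did not overlap for 4 of the 5 members, and for 53.5% of all tested genes. In the authors' deposited table a q-value under 0.05 was listed for the same 4 members and for 44.7% of the tested genes.

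The promoter of each of the 4 members that passed the test is shown, as the 250 bases before the transcription start in RefSeq (GRCm38.p6, gene strand, 5' to 3'), because HIF binds a short core whose letters can be looked for there. Capitals mark the cores ACGTG and GCGTG on either strand (CACGT and CACGC on the other), and overlapping matches are counted separately. The windows are chr8:124949255-124949504 on the minus strand for Egln1, chr7:27166803-27167052 minus for Egln2, chr10:59951771-59952020 minus for Ddit4 and chr12:73907617-73907866 plus for Hif1a.
Egln1: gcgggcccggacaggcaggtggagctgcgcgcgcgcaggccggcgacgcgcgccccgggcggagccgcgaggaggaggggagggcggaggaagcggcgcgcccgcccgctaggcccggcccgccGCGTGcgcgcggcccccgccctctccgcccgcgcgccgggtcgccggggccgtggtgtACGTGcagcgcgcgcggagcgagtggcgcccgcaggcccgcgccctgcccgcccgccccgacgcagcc
Egln2: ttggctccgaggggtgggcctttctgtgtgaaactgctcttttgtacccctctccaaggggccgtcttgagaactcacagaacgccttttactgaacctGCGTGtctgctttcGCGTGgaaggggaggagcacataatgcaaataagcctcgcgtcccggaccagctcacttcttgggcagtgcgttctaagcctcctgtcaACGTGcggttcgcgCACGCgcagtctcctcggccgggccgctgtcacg
Ddit4: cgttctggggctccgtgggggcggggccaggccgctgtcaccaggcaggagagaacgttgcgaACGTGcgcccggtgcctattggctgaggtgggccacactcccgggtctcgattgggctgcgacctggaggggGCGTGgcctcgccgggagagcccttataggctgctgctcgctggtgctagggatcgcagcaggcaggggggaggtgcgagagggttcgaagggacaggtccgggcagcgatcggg
Hif1a: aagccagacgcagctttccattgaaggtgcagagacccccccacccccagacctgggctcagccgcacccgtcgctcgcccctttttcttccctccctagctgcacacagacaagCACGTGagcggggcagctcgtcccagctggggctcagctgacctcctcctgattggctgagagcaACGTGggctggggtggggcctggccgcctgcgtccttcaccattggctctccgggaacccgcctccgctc

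The Egln1 window held 2 matches, starting 126 and 68 bases before the start, within a sequence of 86% G and C. Egln2 held 4, and a window at another RefSeq start of the same gene held 1. Ddit4 held 2, at 187 and 115 bases before the start. Hif1a held 3, of which a pair overlaps in CACGTG on opposite strands. Of the 9 members with a window in the RefSeq table, 8 had at least 1 match, and Vhl had none. Of all 32851 RefSeq windows of this length, 38.6% held at least 1 match, 16.7% at least 2 and 2.58% at least 4. The Hif1a window lies within the annotated span of the gene, and the bases after its start were not found in an annotated Hif1a transcript. The Egln1 and Ddit4 windows partly overlap the annotated spans of their genes. A match is a description of letters and not a binding site. The 2 members that rose and the 2 that fell all carried matches, as did nearly every member with a window, so a match could not separate the directions. The Egln2, Ddit4 and Hif1a windows shown were 59.2%, 70% and 66.4% G and C. The shares over all windows were not matched for G and C, and no role of the matches was tested.

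Egln1 encodes PHD2, the main oxygen-sensing prolyl hydroxylase of most tissues (ENSMUSG00000031987.6, GRCm38 chromosome 8, 124908587 to 124949324, minus strand). Its FPKM was 153.7, 144.8 and 154.4 in IVM replicates 1, 2 and 3, and 54.3, 28.5 and 44.8 in IVO replicates 1, 2 and 3. Every IVM library was above every IVO library by a wide margin, and the IVO libraries varied more among themselves. Egln1 averaged 151 ± 5.31 FPKM in IVM against 42.5 ± 13.1 in IVO, a 3.55-fold ratio. Its log2 difference of 1.85 had an SE of 0.198 and a limma adjusted p of 0.000175, and 3.07% of all tested genes were called higher in IVM by at least as much. In the authors' deposited table the q-value of Egln1 was 0.000248.

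Egln2 encodes PHD1, a related hydroxylase (ENSMUSG00000058709.11, chromosome 7, 27158658 to 27166802, minus strand). It was far less abundant, with an FPKM of 6.12, 5.86 and 7.31 in the IVM libraries and 2.10, 3.09 and 3.84 in the IVO libraries. The groups did not overlap here either. Egln2 averaged 6.43 ± 0.772 FPKM in IVM against 3.01 ± 0.870 in IVO, and its log2 difference of 0.91 had an SE of 0.204 and a limma adjusted p of 0.00720. Its annotation shares 11 bases with Cyp2t4 on the other strand.

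Egln3 encodes PHD3, which is itself induced by HIF in many cells (ENSMUSG00000035105.5, chromosome 12, 54178981 to 54203860, minus strand). It was near the bottom of the measurable range: FPKM was 0.239, 0.225 and 0.429 in IVM and 0.744, 0.403 and 0.600 in IVO. The groups overlapped, since IVM replicate 3 was above IVO replicate 2 (exact two-sided permutation test, p = 0.2, where the smallest possible with 3 against 3 is 0.1). Its mean was 0.298 ± 0.114 in IVM against 0.582 ± 0.171 in IVO.

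Within the family Egln1 made up most of the message in every library. Its share of the summed FPKM of the 3 genes was 96.0%, 96.0% and 95.2% in IVM and 95.0%, 89.1% and 91.0% in IVO (exact two-sided permutation test, p = 0.1, the smallest possible). Egln3 held 0.149%, 0.149% and 0.265% in IVM and 1.30%, 1.26% and 1.22% in IVO, groups that did not overlap (exact permutation test, p = 0.1). The share of Egln2 overlapped between groups, at 4.07 ± 0.379% in IVM against 7.05 ± 3.06% in IVO (exact permutation test, p = 0.4). A share within a library does not depend on scaling between libraries. The shares are tied to each other, however. The summed FPKM, mostly Egln1, was 158 ± 5.94 in IVM against 46.1 ± 12.9 in IVO. A higher Egln1 FPKM lowers the Egln3 share by itself, and the FPKM of Egln3 overlapped between groups. The depth behind the Egln3 values is unknown in reads.

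Hif1a, the oxygen-regulated subunit gene (ENSMUSG00000021109.13, chromosome 12, 73901375 to 73947530, plus strand), changed less. Its FPKM was 70.8, 77.0 and 74.3 in IVM and 101.6, 98.1 and 80.3 in IVO. All IVO values were above all IVM values, but IVO replicate 3 was close to IVM replicate 2. Hif1a averaged 74.0 ± 3.11 FPKM in IVM against 93.3 ± 11.4 in IVO, and its log2 difference of -0.32 had an SE of 0.106 and a limma adjusted p of 0.0376. This call was lost in 10 of 18 alternatives, among them the omission of any one of IVM replicates 1, 2 and 3 or IVO replicates 1 and 2 (adjusted p 0.124, 0.0758, 0.0890, 0.102 and 0.107), while all 18 kept the sign. Gm15283 on the other strand and Gm49321 on the same strand are annotated over Hif1a, and whether the counting used strand is not stated.

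Egln1 and Hif1a exchanged places in the order of abundance. Egln1 FPKM per Hif1a FPKM was 2.17, 1.88 and 2.08 in the IVM libraries and 0.534, 0.290 and 0.558 in the IVO libraries. The hydroxylase message was thus above that of its substrate in all 3 IVM libraries and below it in all 3 IVO libraries. This ratio was chosen after the values were seen and carries no test.

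**Figure D2:**
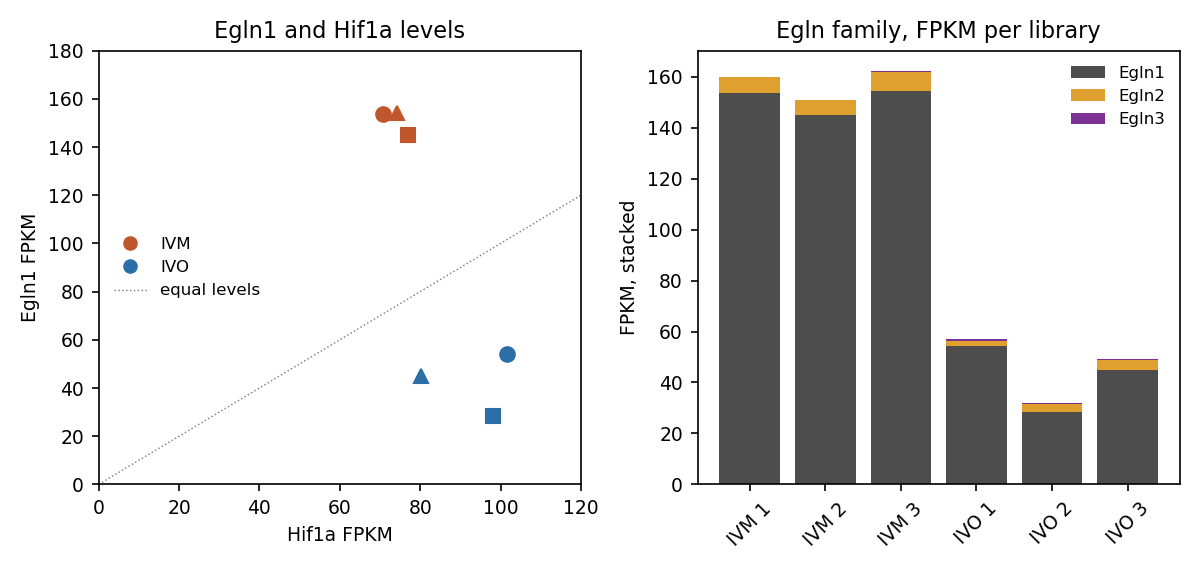
Left, Egln1 FPKM against Hif1a FPKM in each library (circle, square and triangle for replicates 1, 2 and 3), where the IVM points lie above the dotted line of equal levels and the IVO points below it. Right, stacked FPKM of Egln1, Egln2 and Egln3 per library, with totals of 151 to 162 in IVM and 32.0 to 57.2 in IVO.

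Vhl encodes the substrate receptor of the ligase that binds hydroxylated HIF-1 alpha (ENSMUSG00000033933.13, chromosome 6, 113623959 to 113631633, plus strand). Its message was scarce and varied little, with an FPKM of 0.602, 0.661 and 0.589 in IVM and 0.600, 0.789 and 0.671 in IVO. The ranges overlapped (exact two-sided permutation test, p = 0.3). Of the low members Vhl had the tightest groups, at 0.617 ± 0.0388 in IVM against 0.687 ± 0.0957 in IVO.

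Ddit4 encodes REDD1, a stress-induced inhibitor of the growth kinase complex mTORC1 (ENSMUSG00000020108.4, chromosome 10, 59949669 to 59951834, minus strand). It was the most abundant member in every library, at 560, 568 and 556 FPKM in IVM and 719, 640 and 817 in IVO. The IVM libraries were nearly identical to each other, and the lowest IVO library was still above them. Ddit4 averaged 561 ± 6.05 FPKM in IVM against 725 ± 88.6 in IVO, and its log2 difference of -0.36 had an SE of 0.0900 and a limma adjusted p of 0.0114. The call was lost with each library rescaled to the same summed FPKM (adjusted p = 0.0744) and without a variance trend (adjusted p = 0.0623; range over alternatives 0.00247 to 0.0744). Ddit4 FPKM per Hif1a FPKM was 7.59 ± 0.279 in IVM against 7.92 ± 1.96 in IVO, with overlapping groups.

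Higd1a encodes a small mitochondrial protein of the inner membrane that HIF induces (ENSMUSG00000038412.8, chromosome 9, 121848563 to 121858362, minus strand). Its FPKM was 5.27, 3.91 and 5.67 in IVM and 6.23, 4.84 and 7.75 in IVO, and the groups overlapped. The log2 difference was -0.28 with a 95% confidence interval from -0.75 to 0.18 (limma adjusted p = 0.303), which spans both a fall and a small rise.

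Ndrg1, a growth-arrest gene widely used as a hypoxia marker (ENSMUSG00000005125.13, chromosome 15, 66929318 to 66969640, minus strand), was at 0.250, 0.344 and 0.236 FPKM in IVM and 0.120, 0.923 and 0.824 in IVO. In IVO replicates 2 and 3 it was above all IVM libraries, and in IVO replicate 1 below them. Ankrd37, which encodes an ankyrin repeat protein (ENSMUSG00000050914.16, chromosome 8, 45996902 to 46005707, minus strand), was at 0.121, 0.136 and a listed 0 in IVM and at a listed 0, 0.429 and 1.52 in IVO. Its annotation lies across Lrp2bp on the other strand, which was at 2.96 to 5.41 FPKM, so its own reads cannot be told apart from that gene if counting ignored strand. P4ha1, the catalytic subunit of the prolyl hydroxylase that modifies collagen (ENSMUSG00000019916.14, chromosome 10, 59323296 to 59373304, plus strand), was at 0.591, 0.408 and 0.496 in IVM and 0.0281, 0.621 and 0.192 in IVO. All 3 genes had overlapping groups (exact two-sided permutation test, p = 0.4 for each), and in each the IVO libraries spread more widely than the IVM libraries. Ndrg1 and P4ha1 were highest in IVO replicate 2, the library in which the somatic markers Tnfaip6 and Spp1 were highest too. Other somatic markers, Hsd3b1, Inha and Cyp11a1, were highest in IVM replicate 2. There P4ha1, at 0.408, was lowest among the IVM libraries, and Ndrg1, at 0.344, was highest among them. Ankrd37 was highest in IVO replicate 3. The part of somatic RNA in the values of Ndrg1, Ankrd37 and P4ha1 was not tested.

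The order of levels differed between origins. In IVM it ran Ddit4, Egln1, Hif1a, Egln2, Higd1a, Vhl, P4ha1, Egln3, Ndrg1 and Ankrd37, and in IVO it ran Ddit4, Hif1a, Egln1, Higd1a, Egln2, Vhl, Ankrd37, Ndrg1, Egln3 and P4ha1. The first 3 places were separated beyond the spread of the libraries in each group, and so were Higd1a and Egln2. From Vhl downwards the libraries of neighbouring genes overlapped in both groups, except for Ndrg1 and Ankrd37 in IVM.

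The other genes of oxygen sensing moved in both directions. Of 20 listed genes 16 reached the filter, of which 6 were higher and 5 lower in IVM and 5 did not pass. The median log2 difference of the 16 was -0.15, against -0.02 over all tested genes. The share called, 11 of 16, was read against the 41.0% of all tested genes, without a test of the list.

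In the ligase that Vhl serves, Tceb1, which encodes the adaptor elongin C, rose most. Its FPKM was 122.6, 106.3 and 124.5 in IVM and 18.1, 21.2 and 24.8 in IVO, with no overlap (log2 difference 2.42, SE 0.129; limma adjusted p = 6.97e-06). Tceb2, the gene of elongin B, averaged 5.05 ± 0.764 in IVM against 1.86 ± 1.96 in IVO, with IVO replicate 1 listed at 0, and did not pass (limma adjusted p = 0.0507). Cul2, the scaffold, had a mean FPKM of 1.02 and 1.90, and Rbx1, the RING subunit, of 1.42 and 1.62, and neither passed. Elongin C also serves other ligases and transcript elongation.

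Arnt, which encodes the subunit that HIF-1 alpha must bind to act, averaged 7.94 ± 1.55 FPKM in IVM against 22.0 ± 0.611 in IVO (log2 difference -1.38, SE 0.154; limma adjusted p = 0.000212). Ep300 and Crebbp, the genes of the coactivators p300 and CBP, fell by 0.49 and 0.73 on the log2 scale. Epas1, encoding HIF-2 alpha, had an FPKM of 0.103 to 1.19 over the 6 libraries, and Arnt2 of 0 to 0.147, both under the filter.

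Hif1an, the gene of the asparagine hydroxylase that blocks coactivator binding, averaged 6.54 ± 0.324 FPKM in IVM against 2.73 ± 1.15 in IVO (log2 difference 1.06, limma adjusted p = 0.00549). Cited2, whose protein competes with HIF for p300 and CBP, was at 33.5 ± 2.20 and 17.2 ± 3.65 (log2 difference 0.93, limma adjusted p = 0.00139). Hif3a, the gene of a HIF alpha paralog with inhibitory forms, was at 2.45 ± 0.206 and 0.481 ± 0.190 (log2 difference 1.23). Usp20, the gene of a deubiquitinase reported to act on HIF-1 alpha, was at 1.04 to 1.40 in IVM and 0.0544 to 0.175 in IVO, with a mean under the filter, and so was not tested. Gnb2l1, the gene of RACK1, which is reported to bring a ubiquitin ligase to HIF-1 alpha, averaged 7.66 ± 0.531 against 10.7 ± 3.03 and did not pass (limma adjusted p = 0.149). Os9, which encodes an endoplasmic reticulum lectin reported to bind HIF-1 alpha and its hydroxylases, rose by 1.29 on the log2 scale. Apart from Tceb1, Siah1a, Arnt and Os9, which had the 4 largest called differences, and Hif3a, which is also on the list of paralogs, the genes of this list are named after their values were seen.

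Siah ubiquitin ligases target the prolyl hydroxylases themselves, and their genes did not move together. Siah2 averaged 1820 ± 30.3 FPKM in IVM against 2134 ± 76.8 in IVO (log2 difference -0.23, limma adjusted p = 0.0122). Siah1a was at 149 ± 8.29 and 59.6 ± 27.0 (log2 difference 1.40, limma adjusted p = 0.00341). Siah1b, at 227 ± 5.34 and 253 ± 10.3, did not pass. Siah1a and Siah1b are close copies, so their separate values are uncertain where reads were shared. Wsb1, the gene of a ligase adaptor reported to target the von Hippel-Lindau protein, fell by 0.51 on the log2 scale. The calls of Siah2, Wsb1, Ep300, Crebbp, Hif1an and Cited2 were not followed one by one through the alternatives of processing. Those alternatives include equal summed FPKM, under which neither Hif1a nor Ddit4 passed.

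**Figure D3:**
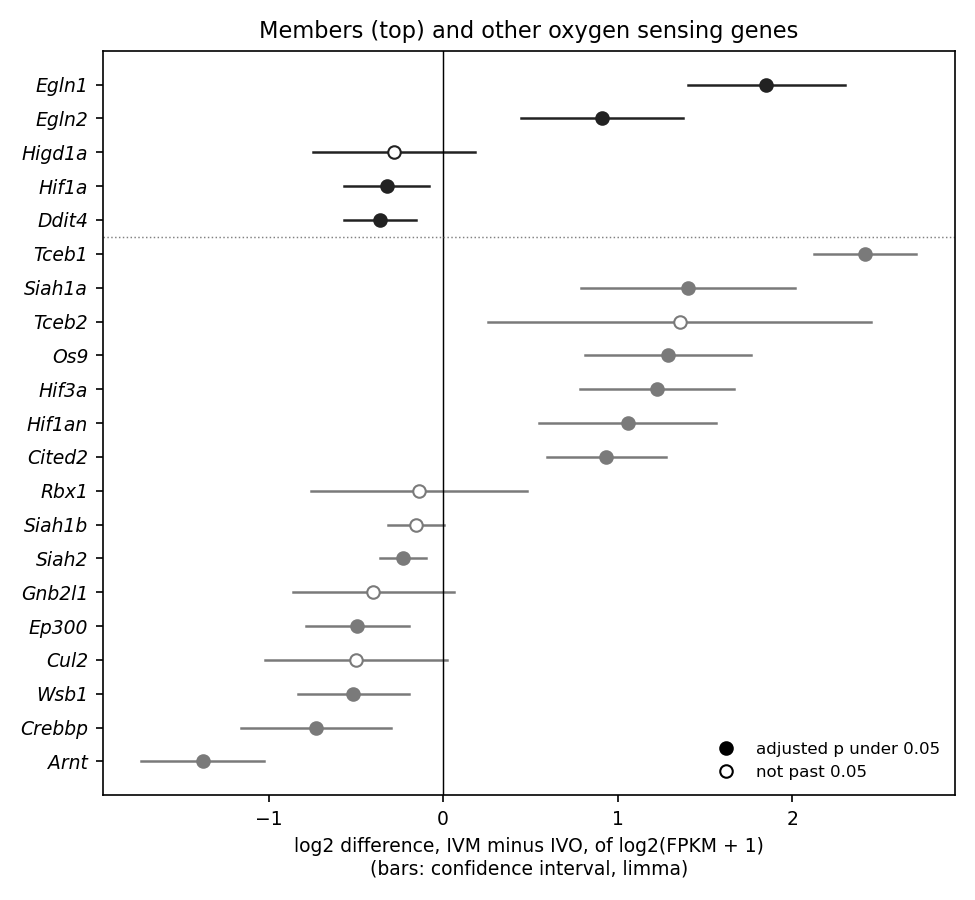
Log2 difference of log2(FPKM + 1), IVM minus IVO, for the 5 tested hypoxia genes (top) and the 16 tested genes of oxygen sensing (bottom), with 95% confidence intervals from limma and filled points at an adjusted p under 0.05. Tceb1 lies farthest to the right at 2.42 and Arnt farthest to the left at -1.38, with Egln1 at 1.85.

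Other known HIF targets did not move one way. Of 19 listed genes of glucose use 11 reached the filter, 1 higher (Gpi1) and 2 lower (Slc2a1 and Hk2) in IVM, with a median log2 difference of -0.09. Slc2a1, the gene of the glucose transporter GLUT1, averaged 2.60 ± 0.561 FPKM in IVM against 10.9 ± 3.09 in IVO, and Hk2, a hexokinase gene, 2.74 ± 0.403 against 5.30 ± 0.632. Gpi1, a glycolytic isomerase gene, averaged 1.76 ± 0.385 against 0.543 ± 0.427. It no longer passed in 5 of 17 alternatives, with adjusted p at 0.0856 when IVM replicate 2 was left out, at 0.0593 and 0.0594 when IVO replicate 1 or 2 was, at 0.0573 without a filter, and at 0.0965 under quantile normalization, where the log2 difference was 0.52 in place of 0.86. Of 35 other listed targets 16 reached the filter, 4 higher and 3 lower, with a median of -0.10. Narf, whose protein binds prelamin A, Bnip3l, a gene of mitochondrial clearance, and Tfrc, the transferrin receptor gene, rose by log2 differences of 1.07, 1.05 and 0.82. Bnip3 went the other way from Bnip3l, at 24.4 ± 2.04 FPKM in IVM against 31.2 ± 2.38 in IVO (log2 difference -0.34, limma adjusted p = 0.0380). Among the other called genes of this list, Ak4 rose by 0.54 and Jmjd6 fell by 0.67. Bnip3, Ak4 and Jmjd6 are named after their values were seen, and their calls were not followed through the alternatives. Plod2, a collagen lysyl hydroxylase gene, was at 0.843 ± 0.338 in IVM against 2.67 ± 0.957 in IVO. Among the IVO libraries Plod2 was highest in replicate 2, at 3.77, where the somatic markers Tnfaip6, Inhba, Vcan and Spp1 were highest as well, at 5.14, 3.77, 2.31 and 67.6. Other somatic markers, Hsd3b1, Inha and Cyp11a1, were highest in IVM replicate 2, where Plod2, at 1.10, was highest among the IVM libraries too. The part of somatic RNA in the Plod2 difference was not tested. The call of Tfrc was lost without IVM replicate 2 (adjusted p = 0.0818), without a filter (adjusted p = 0.0518) and under quantile normalization, where its log2 difference was 0.50 (adjusted p = 0.102). The targets Epo, Adm and Ppp1r3c were listed at 0 in all 6 libraries. Others were detected with a mean under the filter, and so were not tested, and they went both ways. Vegfa averaged 0.367 in IVM against 1.57 in IVO and Slc16a3 0.0838 against 1.18, while Car9 averaged 1.09 in IVM against 0.220 in IVO.

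Among paralogs and partners, Ndrg4 contrasted with its low relative Ndrg1. It was at 14.2, 11.9 and 15.9 FPKM in IVM and 1.86, 0.146 and 0.504 in IVO (log2 difference 3.13, SE 0.314; limma adjusted p = 0.000129). P4hb, protein disulfide isomerase and the partner subunit of the P4ha1 product, averaged 196 ± 11.3 against 158 ± 2.45 FPKM (log2 difference 0.31), while P4ha2 and P4ha3 reached at most 0.457 and 0.440 in any library. The call of P4hb was lost without IVM replicate 1 or 2 (adjusted p 0.0534 and 0.0532) and without a variance trend (0.0599). Higd2a, a relative of Higd1a, was at 20.4 to 30.4 FPKM over the libraries and did not pass, and Higd1b and Higd1c were listed at 0. Of 13 listed genes here 5 were tested, 3 higher and 0 lower in IVM, with a median log2 difference of 0.31.

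Of 13 listed genes of mTORC1 and its regulators, the kinase complex that the Ddit4 product inhibits, 8 were tested, with 1 higher, 1 lower and a median log2 difference of 0.0086. Txnip, a stress-responsive thioredoxin partner gene, averaged 913 ± 48.0 FPKM in IVM against 491 ± 223 in IVO, and Akt1s1, the gene of the mTORC1 inhibitor PRAS40, 8.20 ± 1.08 against 12.2 ± 2.06. Both calls were lost when some single libraries were left out: Txnip without IVM replicate 1, 2 or 3 (adjusted p 0.0535, 0.0537 and 0.0871), and Akt1s1 without IVM replicate 2 or 3 or IVO replicate 2 or 3 (adjusted p 0.124, 0.106, 0.108 and 0.0777). Without a filter neither passed (0.0837 and 0.0671), Txnip did not pass without a variance trend (0.0540), and Akt1s1 did not pass with equal summed FPKM (0.0994) or upper quartile scaling (0.0717). The log2 difference of Txnip was 1.01, and 0.59 without IVO replicate 3. Tsc1, a brake on mTORC1 through which REDD1 acts, was at 8.52 and 8.58 FPKM on average, and it did not pass, nor did Mtor and Rheb. Tsc2, on the same list, was at 0.424 to 1.02 FPKM in IVM and 0.0667 to 0.254 in IVO. Its mean was under the filter, and so it was not tested. Over the 5 lists together 55 genes were tested, of which 14 were higher and 11 lower in IVM. Among all tested genes 20.6% were higher and 20.4% lower, the shares against which these counts and those of each list are to be read. No list was tested as a set. The 14 higher and 11 lower became 18 and 6 with equal summed FPKM, and 12 and 17 under quantile normalization.

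The genes with the pattern most like each abundant called member were taken from all tested genes by the smallest root mean square difference between centred log2(FPKM + 1) profiles over the 6 libraries. For Egln1 these were Fam134a, Foxm1 and Ybx2, at distances of 0.0702, 0.0731 and 0.0986. Foxm1, a cell cycle transcription factor gene, averaged 40.2 ± 4.10 FPKM in IVM against 10.3 ± 3.29 in IVO, and Ybx2, a gene of maternal mRNA storage, 79.2 ± 4.51 against 21.3 ± 6.39. For Ddit4 they were Ccng2, Btg4 and Steap2, at 0.0334, 0.0426 and 0.0509, with Btg4, a gene of maternal mRNA clearance, at 2668 ± 76.6 against 3445 ± 274. For Hif1a they were Lrrc17, Bin2 and Ankrd6, at 0.0404, 0.0414 and 0.0426. The profiles share 6 libraries in 2 groups, and the distances are a description with no test.

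Facts of the libraries bear on all of these values. Summed FPKM was 353438 to 364983 in IVM and 394233 to 402054 in IVO, and, read from the steps between values under 0.3, the other libraries had 0.779 to 0.908 of the depth of IVM replicate 1. Of 15 listed egg markers 14 were tested, 11 higher and 0 lower in IVM, against 20.6% and 20.4% of all tested genes. Their summed FPKM was 13557 to 13936 in IVM and 8659 to 10546 in IVO. Most of it was Gdf9, at a mean of 8310 in IVM against 6745.5 in IVO. Some egg markers were scarce in IVO. Zp2, Ooep and Zp1 averaged 0.398, 4.58 and 8.70 there, against 15.2, 45.2 and 69.7 in IVM, and Figla was listed at 0 in every IVO library. Of 26 cumulus and granulosa cell markers 12 were tested, 2 higher and 2 lower, and their summed FPKM was 41.9 to 102.3 in IVM and 44.2 to 104.5 in IVO, with Areg listed at 0 throughout. Those sums rest largely on Hsd3b1, Inha, Cyp19a1 and Gja1, and single markers went opposite ways. Inha and Kitl were higher in IVM, at 16.9 ± 9.39 against 3.90 ± 2.84 and 6.19 ± 0.792 against 3.92 ± 0.460. Tnfaip6, a gene of cumulus expansion, was at 0.726, a listed 0 and a listed 0 in IVM and at 1.78, 5.14 and 1.37 in IVO (limma adjusted p = 0.0120), and Inhba was at 0.248 ± 0.221 against 2.18 ± 1.39 (limma adjusted p = 0.00986). Vcan and Ereg, under the filter, also had no IVM library as high as any IVO library. Amh, Foxl2, Inhbb, Amhr2 and Fshr, also under the filter, were instead higher in every IVM library than in any IVO library. Amh averaged 1.75 ± 0.458 in IVM against 0.189 ± 0.182 in IVO, and Inhbb 1.55 ± 0.357 against 0.276 ± 0.272. Of 11 oviduct markers 3 were tested, 1 higher and 2 lower, at a summed 221 to 249 in IVM and 265 to 284 in IVO, with Pax8 and Wfdc2 listed at 0. That sum is mostly Cdh1 and Cldn4, at 159 ± 14.0 against 201 ± 18.3 and 74.3 ± 2.27 against 28.8 ± 8.03. Spp1, a secreted phosphoprotein gene on the oviduct list, was at 12.2, 1.31 and a listed 0 in IVM and at 26.7, 67.6 and 31.3 in IVO (log2 difference -3.66; limma adjusted p = 0.00612). Blood and immune markers summed to at most 3.53. The part of carried-over somatic RNA in the members' values was not tested, and in such bulk samples fewer cells of a type and less RNA per cell cannot be told apart.

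**Figure D4:**
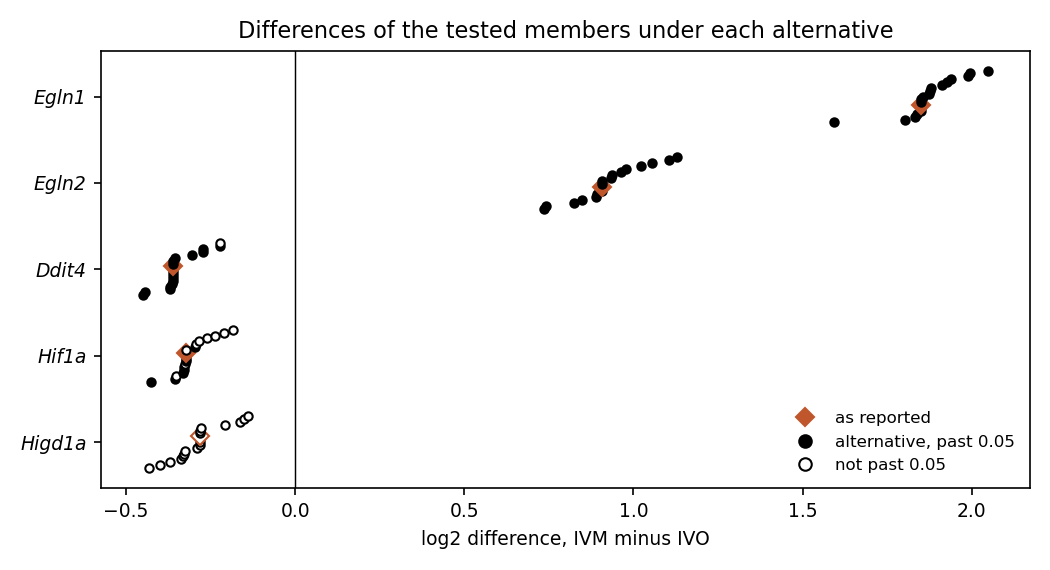
Log2 difference, IVM minus IVO (x axis), of the 5 tested hypoxia genes as reported (diamonds) and under each alternative of processing or with 1 library left out (circles, filled at an adjusted p under 0.05). Egln1 stays between 1.59 and 2.05 and Egln2 between 0.74 and 1.13, filled throughout, whereas Hif1a has 10 open circles and Ddit4 has 2.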

How the data were processed

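RNA-seq of 6 libraries of mouse metaphase II oocytes was used, 3 IVM and 3 IVO, grouped by the titles in the labels. The file of the authors holds, per the file headers, FPKM for every gene in every library, and the authors' own p-value and q-value of the comparison. Aligner, counter and use of strand are not stated in the sources used here. The build is mm9 per the submitters' processing notes, but the loci of all 10 members overlapped the genes of that name in GRCm38 (GENCODE M21), whose coordinates are printed. Read depth is unknown, so no counting interval is given, and a listed 0 can be a failed estimate. Of 24254 rows, 7775 were at 0 in all libraries.

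Genes whose mean FPKM reached 1 entered a fit on log2(FPKM + 1) by limma 3.58.1 (R 4.3.3) with a variance trend. Tests were two-sided, called at a Benjamini-Hochberg adjusted p under 0.05. Differences on this scale understate the change of low genes. The procedure was also run on simulated data with independent noise, where few genes changed, and by more than Hif1a and Ddit4 differed here. That run therefore does not bear on calls as small as theirs. Members under the filter got exact permutation tests. The members and all lists were chosen with earlier results of these data known, and the rule for naming list genes took at most 4 called ones per list, by size of difference. Similar patterns were sought for called members whose mean FPKM reached 5. Alternatives covered the pseudocount, filter, scaling, variance model, sample weights, transcript length, a replicate block, the authors' q-values and each library left out.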

Additional observations from a re-analysis of the deposited data

How the results depend on the processing

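Egln1 and Egln2 kept their direction and their call in every alternative that tested them, with log2 differences of 1.59 to 2.05 and 0.74 to 1.13. With a filter at a mean FPKM of 5, Egln2 was not tested, so 1 member was called higher instead of 2. The count of members called lower, 2 as reported, was 1 without a filter, 1 under upper quartile scaling and 1 under quantile normalization, and 0 with equal summed FPKM and 0 without a variance trend. It ranged from 1 to 2 with single libraries left out. The median log2 difference of all tested genes was -0.02 as reported, 0.0972 with equal summed FPKM and -0.0770 under quantile normalization. With equal summed FPKM Hif1a was at -0.18 and Ddit4 at -0.22, still below that median. Of the 55 other pathway genes tested, 14 were called higher and 11 lower, against 20.6% and 20.4% of all tested genes. The higher count was 8 with a filter at a mean FPKM of 5, where fewer genes were tested. The lower count was 6 with equal summed FPKM and 17 under quantile normalization, and with single libraries left out it ranged from 7, without IVM replicate 2, to 13; the cause was not tested. None of the 5 members under the filter had groups that did not overlap, and 0 passed limma without a filter. With single libraries left out, 0 to 3 had groups that did not overlap, the highest without IVO replicate 1. Groups of fewer libraries fail to overlap more readily. The share among all rows under the filter was not computed, so these counts are a description only. The difference in the Egln1 share was 4.04 percentage points, and 2.73 to 5.71 with single libraries left out. Whether replicate numbers pair the libraries is not stated. Correlations of same-numbered deviations were 0.0777, 0.0599 and 0.0900, and those of differently numbered libraries were not computed for reference. A replicate block left 2 members higher and 2 lower, with 15 and 12 other pathway genes called. Under the block Akt1s1 did not pass (adjusted p = 0.0568), and the call of no member changed.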
